A study of Mus musculus with 8 samples.

Results

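Endothelial and haemogenic genes are those by which blood vessels, and the vessel lining from which early blood cells bud, are recognised. A set of 34 such genes was followed over 8 one-colour arrays. Each gene was matched by its symbol among the non-control probes, and all 34 of 34 were found, with 46 probes in all, among 29544 gene names tested. Where a gene had several probes, its brightest on average stood for it, and Kdr was followed with both.

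Endothelial cells respond to VEGF through the receptor tyrosine kinases Kdr (Flk1), Flt1 and Flt4, and to angiopoietins through Tek (Tie2) with its partner Tie1. The ETS factors Etv2, Erg and Fli1, with Tal1 and Lmo2, direct mesoderm toward endothelium and blood in the mouse embryo. Because Flk1 marks endothelium and its mesodermal precursors, an antibody against it is used in cell sorting to remove or to collect these cells.

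The cells came from ICR mouse embryos carrying a green fluorescent protein reporter. Hoxb7-GFP, in which the Hoxb7 promoter drives the protein, marks the nephric duct and its outgrowth, the ureteric bud. Hoxb7-GFP positive cells were taken at E8.75 (1 array, undivided embryo), E9.5 (2 arrays, from the rostral and the caudal part), E10.5 (2 arrays, rostral and caudal) and E11.5 (1 array, the ureteric bud). Wt1-GFP positive cells of E9.5, an intermediate mesoderm population, gave 2 further arrays (rostral and caudal part of the embryo). Sample labels from E9.5 on state that the Hoxb7-GFP cells were Flk1-negative. The E8.75 label does not, while the text on the series describes a Flk1-negative gate for the duct precursors in general. The Wt1-GFP labels state no selection on Flk1. No label says whether embryos were pooled or whether parts came from the same animals.

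Each level below is a log2 signal after division by that array's 75th percentile, so 0 is the signal of a fairly bright probe. On each array 60.6% to 69.2% of probes stood well above background, with 0 saturated, and array pairs correlated at r = 0.923 to 0.964. Hoxb7 itself was at 1.64 at E8.75 and 2.30 to 3.27 on the later duct arrays, and at 1.50 and 1.63 in Wt1-GFP cells. Pax2, a transcription factor of the early duct, was at 5.69 at E8.75, 4.20 to 5.37 from E9.5 to E11.5 and at 2.71 and 1.32 in Wt1-GFP cells. Wt1 was at 4.08 and 4.01 in Wt1-GFP cells and was not well above background at E8.75. Cdh1 (E-cadherin) and Wnt9b, which the mature duct epithelium makes, were also not well above background at E8.75, and both were on all 5 later duct arrays. Of 11 duct genes, 9 were well above background at E8.75, among them Gata3 at 2.85 and Cldn6 at 4.70. At E9.5 against E8.75, 5 of the 11 were higher and 3 lower by 2-fold or more, where 12.6% and 10.9% of all genes were.

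Differences come from a limma fit over all genes and arrays with a term for rostral against caudal position. The fit draws each gene's variance toward a prior taken over all genes, worth 1.695 degrees of freedom. Beyond that prior, the p-values reflect nothing but the variation of the rostral to caudal difference among the 3 split groups. They rest on 2 residual degrees of freedom, which may be technical spread, and a stage with a single array was given the spread of the split ones. In this fit 0 genes passed an adjusted p of 0.05 in any of the 6 comparisons (0.0% called in each). Counts of members at 2-fold or more are therefore given as descriptions, beside the share of all genes tested that went as far.

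The probe sequences of the receptors are shown because the sort was made on one of them and because its probes differ. The files place both Kdr probes on the minus strand of chromosome 5 of mm9, at chr5:76330395-76330454 and chr5:76329309-76329368, with starts 1086 bases apart. They do not say which part of the transcript a probe lies in. The first probe has 1 spot on an array and the second up to 10. Of the second, the first 30 of its 60 bases are printed. The Tie1 probe lies at chr4:118144132-118144191 (minus strand) and the Tek probe at chr4:94540624-94540683 (plus strand). No bases are capitalised, because no motif is marked in these probes.
Kdr, first probe: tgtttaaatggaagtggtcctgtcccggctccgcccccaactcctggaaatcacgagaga
Kdr, second probe, start: ctactgtatcctttagaattttaacctata
Tie1 probe: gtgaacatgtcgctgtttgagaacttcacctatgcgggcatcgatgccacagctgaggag
Tek probe: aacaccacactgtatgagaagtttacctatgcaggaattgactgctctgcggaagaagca

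The endothelial genes were bright at E8.75 and much dimmer in the E9.5 duct. At E8.75 all 34 members were well above background and 27 had a level above 0, with a median level of 1.36. At E9.5, 30 (rostral) and 31 (caudal) members were well above background, then 28 and 23 at E10.5 and 25 at E11.5, with median levels from -3.12 to -1.82. In Wt1-GFP cells 21 were on each array, with medians of -3.18 and -3.61. The share of all probes well above background was 67.3% at E8.75, 67.1% and 67.2% at E9.5, 69.2% and 61.5% at E10.5, 65.5% at E11.5, and 61.5% and 60.6% in Wt1-GFP cells, so it was also low on the caudal E10.5 and Wt1-GFP arrays. In bulk samples of sorted cells, fewer cells of a type and less RNA per cell cannot be told apart. Only the Hoxb7-GFP labels from E9.5 on state a Flk1-negative sort. If the E8.75 cells were not so sorted, stage and this selection cannot be told apart between E8.75 and the later duct arrays.

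At E9.5 against E8.75, 33 of 34 members were lower by 2-fold or more, where 10.9% of all genes were, and 0 were higher by as much, where 12.6% of all genes were. The median difference was -2.92 over the members and -0.015 over all genes. The exception was Vwf, at a difference of 0.20 (SE 0.47). With values below the dimmest well-measured level of an array raised to it, 32 members were lower by 2-fold or more, and Erg was at -0.73. The lowest adjusted p of a member was 0.188, and 26 members had an unadjusted p under 0.05, as did 4601 genes. The level at E8.75 was above that of each of the other 7 arrays for 31 members, against 18.0% of all genes. The 3 members without this order were Vwf, Gja5 and Robo4.

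When the prior variance of the fit followed intensity, 9 members passed as lower at E9.5, where 0.626% of all genes did: Kdr, Flt4, Cdh5, Cldn5, Lyve1, Stab2, Mrc1, Ramp2 and Gpr182. That number was 0 without either E9.5 array or either E10.5 array, 0 with the slide row as a block, 6 without the E11.5 array and 14 without either Wt1-GFP array. With normexp background correction in place of the scanner's own, the plain fit called 14 members as lower at E9.5, among 167 genes. In every comparison, fits without an E9.5, E10.5 or Wt1-GFP array had 1 residual degree of freedom in place of 2. The same held with the slide row as a block, so a change in calls there also reflects the smaller fit. The 3 arrays of the E9.5 to E8.75 comparison lay in the same row of the slide.

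**Figure D1:**
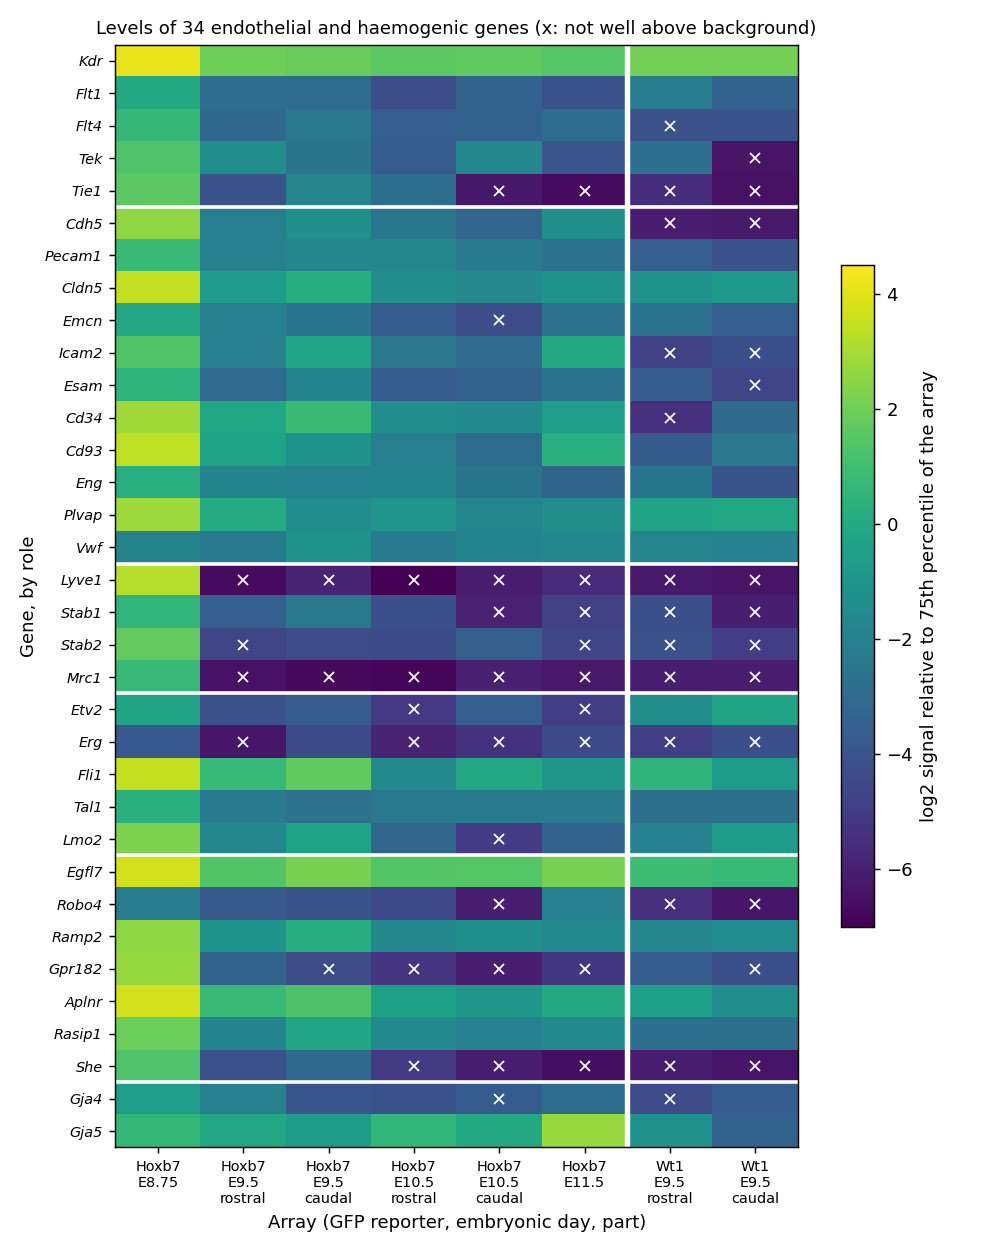
Level of each of the 34 genes (rows, grouped by role with white lines between groups) on each of the 8 arrays (columns), on the log2 scale relative to each array's 75th percentile; a white cross marks a value that was not well above background. The E8.75 column is the brightest for 31 genes, and Lyve1 and Mrc1 are well above background there and on no other array.

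Against Wt1-GFP cells of E9.5, the E8.75 cells were higher by 2-fold or more in 31 of 34 members, where 11.0% of all genes were. The median difference was 4.49, and 31 members had an unadjusted p under 0.05, as did 3918 genes. Vwf (-0.04), Etv2 (0.54) and Erg (0.67) were the members within 2-fold. This comparison shares the E8.75 array with the one above, so the 2 are not independent. With the intensity trend 13 members passed as higher, where 0.196% of all genes did. That number ran from 0 to 21 when single arrays were left out, and was 0 without either E10.5 array or with the slide row as a block. Normexp correction called 19 members as higher in the plain fit, among 142 genes.

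The E9.5 duct, sorted as Flk1-negative, was above the Wt1-GFP cells of the same day in many members. Of 34 members, 19 were higher by 2-fold or more, where 9.55% of all genes were, and 1 (Etv2) was lower, where 7.0% were. With dim values raised to the floor, She (0.52), Robo4 (0.23) and Gja4 (0.87) of these 19 were within 2-fold. The median difference was 1.21 without that step. Both duct arrays were above both Wt1-GFP arrays for 22 members, where 20.0% of all genes were, and below both for 3 (Kdr, Mrc1 and Etv2), where 27.8% were. Mrc1 was not well above background on any of these 4 arrays. The lowest adjusted p of a member was 0.196, and 16 members had an unadjusted p under 0.05, as did 3923 genes.

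With the intensity trend, Cdh5 and Cd34 passed as higher in the duct, where 0.982% of all genes did, and Etv2 as lower, where 1.12% did. The member calls with the trend were 0 without the caudal E9.5 array or either E10.5 array. The call was Cdh5 alone without the rostral E9.5 array, Cd34 and Cd93 without the caudal Wt1-GFP array, and Cdh5, Cd34, Fli1 and Gja5 without the rostral one. With the slide row as a block 0 members passed. Both E9.5 duct arrays lay in the first row of the slide and both Wt1-GFP arrays in the second, so only the E10.5 arrays, 1 in each row, tie the rows together. With the row as a block, 16 members were higher by 2-fold or more, 3 were lower and the median difference was 0.97. Normexp correction gave 7 higher and a median difference of 0.38, and called Cd34 in the plain fit. Without the caudal E9.5 array 12 members were higher by 2-fold or more.

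**Figure D2:**
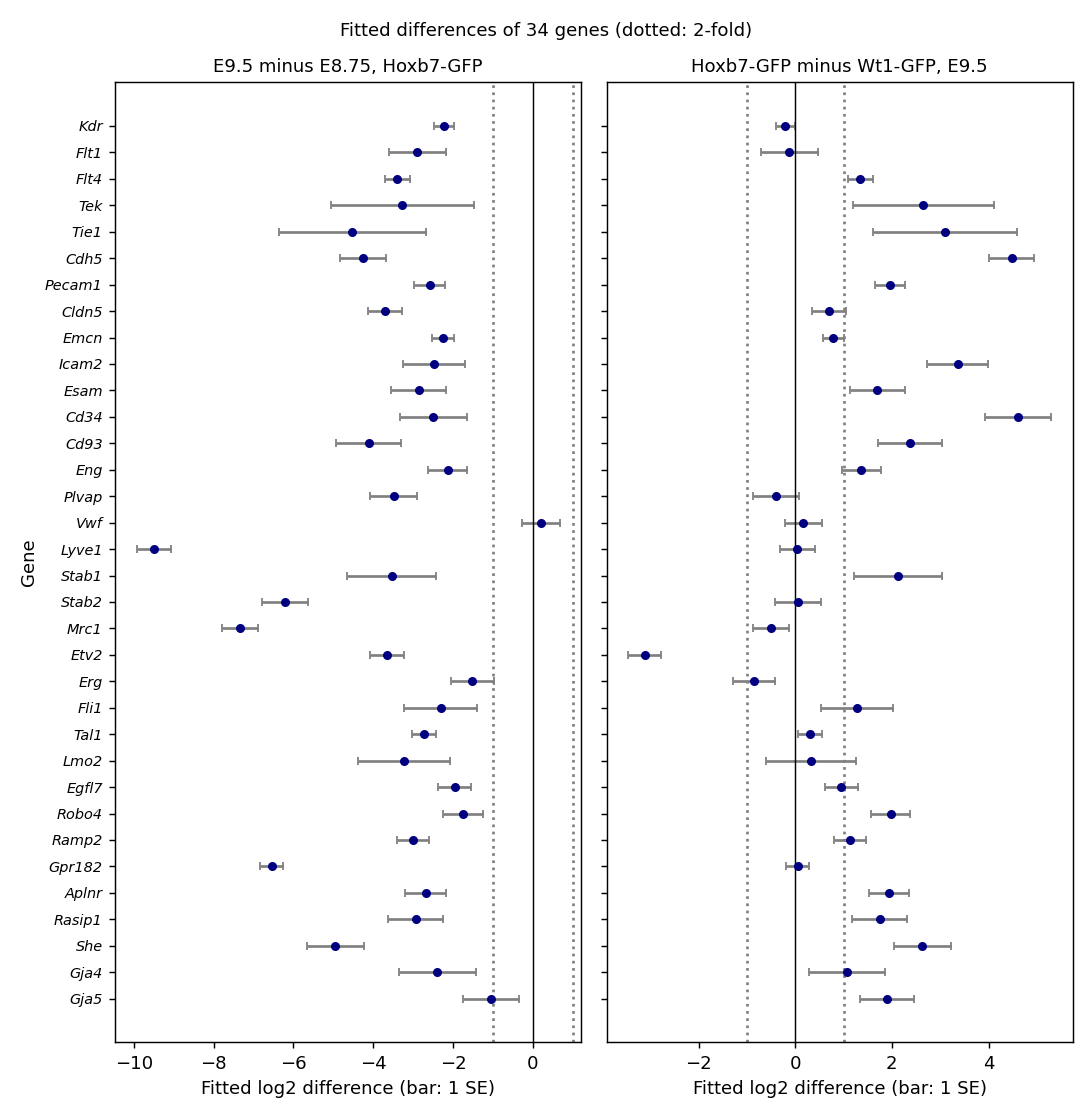
Fitted log2 differences of the 34 genes (points, with bars of 1 SE), E9.5 minus E8.75 in Hoxb7-GFP cells on the left and Hoxb7-GFP minus Wt1-GFP cells at E9.5 on the right; dotted lines mark 2-fold. On the left 33 points lie at or beyond -1. Of these, Lyve1 at -9.49 and Mrc1 at -7.33 were computed from E9.5 values that were not well above background. On the right 19 points lie beyond 1 and Etv2 lies at -3.11. With dim values raised to the floor, She, Robo4 and Gja4 would lie below 1 there.

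Among the receptors, Kdr itself, the VEGF receptor used for the sort, was at 4.12 at E8.75, 1.95 and 1.84 at E9.5, 1.62 and 1.70 at E10.5, 1.47 at E11.5, and 2.10 and 2.10 in Wt1-GFP cells, on its first probe. It was therefore 4.69-fold lower at E9.5 than at E8.75 (log2 difference -2.23, SE 0.25, limma adjusted p = 0.197), and every later duct array was below both Wt1-GFP arrays. At E9.5 the duct differed from Wt1-GFP cells by -0.20 (SE 0.20, adjusted p = 0.679). The second probe gave 2.73 at E8.75, -0.79 and -1.44 at E9.5, -3.23 and -3.38 at E10.5, -1.82 at E11.5, and -0.46 and -0.34 in Wt1-GFP cells. Both probes thus put E8.75 on top and the duct from E9.5 on below the Wt1-GFP cells. They differ in span: 2.65 over the 8 arrays on the first probe and 6.12 on the second, whose SD over repeated spots was at most 0.354. On the second probe the E10.5 arrays were the lowest and E11.5 was above them, while on the first E11.5 was the lowest.

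**Figure D3:**
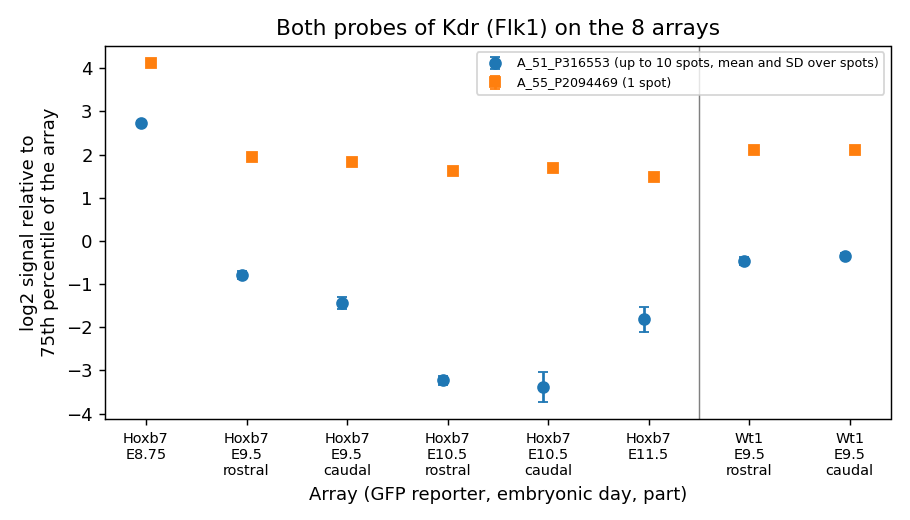
Level of Kdr (Flk1) on each array by its 2 probes, on the log2 scale relative to each array's 75th percentile; the bars on the probe with repeated spots are the SD over spots of that array, not over samples. Both probes are highest at E8.75 (4.12 and 2.73) and lower in the duct than in Wt1-GFP cells from E9.5 on.

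Flt1, a VEGF receptor that also serves as a decoy, was at -0.0040 at E8.75, -2.88 and -2.93 at E9.5, -4.28 and -3.39 at E10.5, -4.09 at E11.5, and -2.18 and -3.39 in Wt1-GFP cells. The duct and Wt1-GFP arrays of E9.5 overlapped (difference -0.12, SE 0.58). Flt4, the VEGF-C receptor of lymphatic and early vascular endothelium, was at 0.65 at E8.75, -3.10 and -2.38 at E9.5, -3.55 and -3.43 at E10.5, and -2.94 at E11.5. In Wt1-GFP cells Flt4 was at -4.17, not well above background, and -4.02, below every duct array.

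Tek, the angiopoietin receptor, was at 1.32 at E8.75, -1.31 (rostral) and -2.59 (caudal) at E9.5, -3.63 and -1.70 at E10.5, -3.99 at E11.5, and -2.81 and -6.40 in Wt1-GFP cells, the last not well above background. Tie1 was at 1.61 at E8.75, -4.06 (rostral) and -1.76 (caudal) at E9.5 and -2.85 at rostral E10.5. The other 4 arrays were not well above background. Rostral and caudal arrays of Tie1 were thus in opposite order at E9.5 and E10.5. Its difference between E9.5 and E8.75 was -4.52 with an SE of 1.84. On the mean of its 2 arrays, the duct of E9.5 was at least 2.32-fold above Wt1-GFP cells (adjusted p = 0.442). The rostral duct array alone, at -4.06, was below the dimmest well-measured level of the rostral Wt1-GFP array, -3.96. An "at least" fold takes for each dim array the higher of the gene's own level and the dimmest level that was well above background there. Such a fold carries no test, here and below, and an adjusted p beside it belongs to the limma fit without that step.

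Junction and surface proteins made up 11 members, and 10 of them were lower by 2-fold or more at E9.5 than at E8.75. Cdh5 (VE-cadherin), the adhesion molecule of endothelial junctions, was at 2.61 at E8.75, -2.06 and -1.23 at E9.5, -2.48 and -3.27 at E10.5 and -1.28 at E11.5. Both Wt1-GFP arrays were not well above background for Cdh5. The E9.5 duct was therefore at least 5.57-fold above them (adjusted p = 0.196), and E8.75 cells at least 106-fold (adjusted p = 0.20).

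Cd34, a sialomucin of endothelium and blood progenitors, was at 2.86 at E8.75, -0.10 and 0.83 at E9.5, -1.38 and -1.48 at E10.5, -0.57 at E11.5, and -5.46 and -3.03 in Wt1-GFP cells. The rostral Wt1-GFP array was not well above background. On this probe all 6 duct arrays were above both Wt1-GFP arrays, and the E9.5 difference from Wt1-GFP cells was 4.61 (SE 0.69, adjusted p = 0.23), or 3.87 with the dim array raised to its floor. The other probe, well above background on all 8 arrays, gave 3.21 at E9.5, but its caudal E10.5 level of -3.26 was below the -2.52 of rostral Wt1-GFP cells. Icam2, an adhesion receptor for leukocytes, was at 1.38 at E8.75, -1.98 and -0.22 at E9.5, -2.44 and -2.98 at E10.5 and -0.03 at E11.5. Neither Wt1-GFP array was well above background for Icam2, and the E9.5 duct was at least 7.94-fold higher (adjusted p = 0.262).

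Pecam1, an adhesion molecule of the whole endothelium, was at 0.75 at E8.75, -1.97 and -1.71 at E9.5, -1.69 and -2.27 at E10.5, -2.69 at E11.5, and -3.55 and -4.07 in Wt1-GFP cells. Every duct array was above both Wt1-GFP arrays. Esam, another junction molecule, and Eng, a co-receptor for BMP9 and TGF-beta, were higher in the E9.5 duct than in Wt1-GFP cells by 1.70 (SE 0.57) and 1.37 (SE 0.40). Cd93, a C-type lectin-like receptor, was at 3.39 at E8.75, -0.32 and -1.14 at E9.5, -2.09 and -2.93 at E10.5, 0.22 at E11.5, and -3.73 and -2.46 in Wt1-GFP cells. Its E11.5 level was above both E9.5 and both E10.5 levels.

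Cldn5, a claudin of endothelial tight junctions, was at 3.46 at E8.75 and between -1.60 and 0.15 on the other 7 arrays. Emcn (endomucin), a sialomucin of capillary and venous endothelium, was at -0.05 at E8.75 and between -4.27 and -2.02 on the others, where caudal E10.5 was not well above background. Plvap, which forms the diaphragms of fenestrae and caveolae, was at 2.83 at E8.75, 0.06 and -1.38 at E9.5, -1.02 and -1.73 at E10.5, -1.32 at E11.5, and -0.38 and -0.15 in Wt1-GFP cells. For Plvap the E9.5 duct and Wt1-GFP arrays overlapped (difference -0.40, SE 0.48). Vwf, the clotting factor of mature endothelium, spanned 1.11 over all 8 arrays on its brighter probe and 2.20 on the other, and neither had E8.75 more than 2-fold above the E9.5 duct.

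Among the scavenger and sinusoidal receptors, Lyve1, a hyaluronan receptor of lymphatic and yolk sac endothelium and of some macrophages, was at 3.24 at E8.75 and was not well above background on any other array. It was at least 273-fold lower at E9.5 than at E8.75 (adjusted p = 0.188). Mrc1, the mannose receptor of macrophages and sinusoidal endothelium, was at 0.74 at E8.75 and likewise not well above background elsewhere, at least 48.5-fold lower at E9.5 (adjusted p = 0.188). Each of the 2 has 1 probe on the array.

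Stab2, a hyaluronan scavenger receptor of sinusoidal endothelium, was at 1.72 at E8.75 and between -4.92 and -3.53 on the other 7 arrays, of which 3 were well above background. Its difference between E9.5 and E8.75 was -6.21 (SE 0.58). Its 2 other probes were well above background on 2 arrays and on 1 array of the 8, and at neither E9.5 array, so no difference is given for them. Stab1, its relative on sinusoidal endothelium and macrophages, was at 0.55 at E8.75, -3.57 and -2.39 at E9.5 and -4.21 at rostral E10.5, and not well above background on the other 4 arrays. The E9.5 duct was at least 2.20-fold above Wt1-GFP cells for Stab1 (adjusted p = 0.415).

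Etv2, Fli1, Lmo2 and Tal1 were lower by 2-fold or more at E9.5 than at E8.75, and the transcription factors differed in how the duct stood to Wt1-GFP cells. Etv2, which acts early and briefly to start the endothelial and blood programme, was at -0.26 at E8.75, -4.13 and -3.71 at E9.5, -5.08 and -3.58 at E10.5, -4.90 at E11.5, and -1.34 and -0.28 in Wt1-GFP cells. The rostral E10.5 and E11.5 arrays were not well above background. It was thus the one member at 2-fold or more below the Wt1-GFP cells in the E9.5 duct (difference -3.11, SE 0.34, adjusted p = 0.201), and its E8.75 level was close to that of caudal Wt1-GFP cells. Its second probe gave 0.05 at E8.75, -4.46 and -3.27 at E9.5, and -2.19 and -0.31 in Wt1-GFP cells, the same order, and was well above background on 4 of the 8 arrays.

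Fli1, which maintains endothelial genes, was at 3.51 at E8.75, 0.70 and 1.70 at E9.5, -1.48 and -0.05 at E10.5, -0.90 at E11.5, and 0.49 and -0.66 in Wt1-GFP cells. Lmo2, a bridging protein of the Tal1 complex, was at 2.26 at E8.75, -1.61 and -0.32 at E9.5, -3.20 and -5.01 at E10.5, -3.40 at E11.5, and -1.90 and -0.69 in Wt1-GFP cells, with caudal E10.5 not well above background. For Lmo2 the E9.5 duct and Wt1-GFP arrays overlapped. Tal1, a regulator of blood and endocardium, was at 0.29 at E8.75 and between -2.76 and -2.21 on the other 7. Erg, which keeps endothelial identity, was dim throughout, at -3.86 at E8.75, and was well above background there and at caudal E9.5 only, where it was at -4.42. The other Erg probe was at -2.40 at E8.75 and was well above background on 1 array.

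All 7 secreted, guidance and signalling proteins were lower by 2-fold or more at E9.5 than at E8.75. Gpr182, an endothelial receptor that scavenges chemokines, had the widest gap, with 2.69 at E8.75, -3.33 at rostral E9.5 and -3.65 in rostral Wt1-GFP cells, and was not well above background on the other 5 arrays (difference -6.54, SE 0.29, adjusted p = 0.188). Aplnr, the apelin receptor of venous endothelium and mesoderm, was at 3.70 at E8.75, 0.75 and 1.28 at E9.5, -0.48 and -0.90 at E10.5, 0.04 at E11.5, and -0.51 and -1.36 in Wt1-GFP cells. Egfl7, a secreted matrix factor of endothelium, was at 3.72 at E8.75, 1.36 to 2.16 on the later duct arrays, and at 0.92 and 0.69 in Wt1-GFP cells.

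Rasip1, needed for vessel lumens, was at 1.91 at E8.75, between -1.90 and -0.26 on the later duct arrays, and at -2.81 and -2.75 in Wt1-GFP cells. Every duct array was above both Wt1-GFP arrays for Egfl7 and Rasip1. Ramp2, the partner of the adrenomedullin receptor, was at 2.54 at E8.75 and between -1.75 and 0.14 on the others. She, an adaptor protein, was at 1.35 at E8.75, -4.14 and -3.07 at E9.5, and not well above background on the other 5 arrays. Robo4, an endothelial guidance receptor, was at -2.14 at E8.75, -3.80 and -4.00 at E9.5, -4.47 at rostral E10.5 and -1.97 at E11.5, and not well above background on the remaining 3.

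The 2 arterial connexins differed from each other. Gja4 (connexin 37) was at -0.54 at E8.75, -1.97 and -3.91 at E9.5, -4.11 and -3.65 at E10.5, and -2.92 at E11.5, and at -4.35 and -3.66 in Wt1-GFP cells. Its caudal E10.5 and rostral Wt1-GFP arrays were not well above background. Gja5 (connexin 40) was at 0.68 at E8.75, -0.12 and -0.62 at E9.5, 0.61 and -0.03 at E10.5, 2.71 at E11.5, and -1.11 and -3.44 in Wt1-GFP cells. Its highest level was thus in the ureteric bud at E11.5, on this probe. A second Gja5 probe that was well above background on all 8 arrays had its highest level at E8.75, -1.22. It was at -2.09 and -2.07 at E10.5 and -1.94 at E11.5, so the probes disagree on the late stage. They also disagree on the E9.5 duct minus Wt1-GFP cells, with 1.90 on the first probe and -0.21 on the second. The remaining probe was well above background on 0 arrays.

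Over all members with more than 1 probe (9 genes), 12 further probes were present and 11 of them were well above background on at least 1 array. Of these 11, all 11 had a lower value at E9.5 than at E8.75, and 10 by 2-fold or more, some of them, like both of Stab2, with E9.5 values not well above background.

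At E10.5 against E9.5 in the duct, 15 of 34 members were lower by 2-fold or more, where 6.3% of all genes were, and 0 were higher by as much, where 6.48% were. The median difference was -0.94. The 15 included Cd34 (-1.80, SE 0.69), Emcn (-1.68, SE 0.22), Aplnr (-1.70, SE 0.42), Fli1 (-1.96, SE 0.75) and Lmo2 (-3.13, SE 0.94), and the lowest adjusted p of a member was 0.525. Caudal E10.5 was not well above background for Emcn or Lmo2, which were at -1.52 and -2.61 with dim values raised to the floor. So raised, Tie1 (-0.49), Robo4 (-0.31), Gpr182 (-0.73) and She (-0.89) of the 15 were within 2-fold. An unadjusted p under 0.05 was reached by 8 members and 2202 genes. With normexp correction 5 members were lower by 2-fold or more and the median difference was -0.31. Tie1, lower by 1.63 (SE 1.50), had a difference of 0.61 without the caudal E9.5 array and 0.39 without the caudal E10.5 array.

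At E11.5 against E10.5, 7 members were higher by 2-fold or more, where 10.9% of all genes were, and 4 were lower, where 10.7% were. The higher ones were Robo4 (3.27, SE 0.49, adjusted p = 0.285), Cd93 (2.73, SE 0.81), Icam2 (2.68, SE 0.77), Gja5 (2.42, SE 0.69), Cdh5 (1.60, SE 0.57), Emcn (1.28, SE 0.27) and Erg. The Gja5 value is from its brightest probe, and the second Gja5 probe was nearly level over these arrays. Erg was not well above background on any of these 3 arrays, so no fold is given for it, and the count without it was 6. The caudal E10.5 array was not well above background for Robo4 or Emcn, whose differences were 2.24 and 1.11 with that array raised to its floor. The lower ones were Tie1, Tek, Eng and She, of which Tie1 and She were not well above background at E11.5 and Tek was at 0.86 without the caudal E10.5 array. The median difference was 0.37, and 5 members had an unadjusted p under 0.05, as did 3714 genes.

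Rostral and caudal parts did not separate the members. At E10.5 the rostral array lay in the first row of the slide and the caudal array in the second, so position and row cannot be told apart there. Over the 3 split groups, Gja5 (1.16, on its brightest probe) was the 1 member higher rostrally by 2-fold or more, where 5.36% of all genes were. The second Gja5 probe gave rostral and caudal levels of -2.29 and -2.71 at E9.5 in the duct. It gave -2.09 and -2.07 at E10.5, and -2.23 and -2.36 in Wt1-GFP cells. Cd34 and Erg were the 2 lower ones, where 2.81% of all genes were. With dim values raised to the floor 0 members were lower by as much. The median difference was 0.01, and the lowest adjusted p was 0.726. An unadjusted p under 0.05 was reached by 4 members and 2009 genes.

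Other endothelial genes were examined with a list of 32, of which 31 were tested. At E9.5 against E8.75, 22 were lower by 2-fold or more and 1 was higher, where 10.9% and 12.6% of all genes were. The median difference was -1.61. The 4 with the largest differences were Clec14a (-5.21, SE 0.59), a lectin-like endothelial receptor, and the transcription factors Hhex (-5.20, SE 0.43), Sox17 (-4.96, SE 0.81) and Sox18 (-4.11, SE 0.78), with adjusted p from 0.188 to 0.239. At E8.75 they were at 1.86, 1.03, 0.38 and 0.68. At rostral E9.5 Hhex and Sox17 were not well above background. The 1 that was higher was Angpt2, an angiopoietin, at -2.17 at E8.75 against 1.12 and 1.99 at E9.5.

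Ligands of the member receptors went both ways. Of 11 tested, 3 were higher and 3 lower at E9.5 by 2-fold or more, where 12.6% and 10.9% of all genes were. Angpt1, the ligand of Tek, was at -1.40 at E8.75, 2.17 and 1.84 at E9.5, 3.58 and 2.83 at E10.5, 3.04 at E11.5, and 1.25 and 1.52 in Wt1-GFP cells. Slit2, of the family that binds Robo receptors, was at -1.48 at E8.75 and 0.86 to 1.93 on the later duct arrays. Vegfc, the ligand of Flt4, was at 1.86 at E8.75, -1.48 and -0.15 at E9.5, -1.62 and -1.64 at E10.5, -0.46 at E11.5, and 0.20 and 1.12 in Wt1-GFP cells. Among the duct arrays, Angpt1 and Slit2 were thus lowest at E8.75 and Vegfc was highest there. Angpt2, which is in this list too, is given above.

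Genes of blood stem and progenitor cells were mixed. Of 11 tested, 3 were lower and 3 higher at E9.5 than at E8.75 by 2-fold or more, where 10.9% and 12.6% of all genes were. Lyl1, a relative of Tal1, was at 0.30 at E8.75, -4.12 and -3.63 at E9.5, and Hhex, which is in this list too, is given above. Myb went the other way and was well above background on all 8 arrays (difference 2.19, SE 0.28). It was at -2.23 at E8.75, -0.18 and 0.10 at E9.5, and -2.85 and -2.52 in Wt1-GFP cells. Runx1, which is needed for blood cells to bud from haemogenic endothelium, was chosen after its values were seen: it was well above background on 1 array, E11.5, at 1.01. Gfi1, which acts downstream of Runx1, was well above background only at caudal E9.5 and was at least 1.815-fold higher at E9.5 than at E8.75. Ptprc (CD45), the common leukocyte antigen, likewise chosen after its values were seen, ran from -2.19 to -1.69 over the 8 arrays.

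Markers of other cell types moved with some of these values. The 8 yolk sac and visceral endoderm genes were all well above background at E8.75. Only 1 or 2 of them were on each later duct array, and 2 and 5 were in Wt1-GFP cells. Their summed signal, in multiples of the 75th percentile, was 6.79 at E8.75, 0.219 to 0.431 on the later duct arrays, and 0.528 and 0.896 in Wt1-GFP cells. Afp (alpha-fetoprotein) was at 0.44 at E8.75 and not well above background elsewhere, and Apob, Ttr and Cubn were likewise not well above background on any later duct array. All 8 were lower at E9.5 by 2-fold or more as fitted, where 10.9% of all genes were. Apoa4, not well above background at E9.5, was at least 1.47-fold lower, so 2-fold is not secured for it. Their part in the members' difference was not tested.

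Of 9 erythroid genes, 5 were higher and 0 lower at E9.5 than at E8.75 by 2-fold or more, where 12.6% of all genes were higher, with a median difference of 1.69, and their summed signal was 3.61 at E8.75, 16.4 and 36.6 at E9.5, 1.18 to 8.26 from E10.5 on, and 10.8 and 7.06 in Wt1-GFP cells. The embryonic globin Hbb-y was at -0.57 at E8.75, 3.06 and 4.27 at E9.5, and 2.48 and 1.82 in Wt1-GFP cells. Of 10 macrophage genes, 4 were higher and 0 lower at E9.5 by 2-fold or more, where 12.6% and 10.9% of all genes were. The median difference over the 10 was 0.59, and the limma adjusted p of those 4 was 0.313 to 0.491. Cx3cr1, among those 4, was well above background at caudal E9.5 only and was at least 1.53-fold higher. At E8.75 6 of the 10 were well above background, among them Csf1r at 3.28 and Cd68 at -1.30, and Tyrobp, Aif1 and Cx3cr1 were not. The part of macrophages in the levels of Lyve1, Mrc1 and Stab1 was not tested. The summed signal of the 10, most of it from a nearly flat Csf1r probe, was 10.8 at E8.75, 11.51 to 15.85 on the later duct arrays, and 15.7 and 14.3 in Wt1-GFP cells.

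Of 9 endocardial and heart genes, 4 were higher and 3 lower at E9.5 by 2-fold or more, where 12.6% and 10.9% of all genes were. Nfatc1, a transcription factor of endocardium, was at 1.49 at E8.75, -3.03 and -0.74 at E9.5, and not well above background in Wt1-GFP cells, while the muscle gene Actc1 was not well above background at E8.75. The 9 genes summed to 7.44 at E8.75, 21.7 and 1.88 at E9.5, 2.10 to 2.29 from E10.5 on, and 14.0 and 5.22 in Wt1-GFP cells. Of 5 mural cell genes, 1 was lower and 1 higher at E9.5 by 2-fold or more, where 10.9% and 12.6% of all genes were. They summed to 6.58 at E8.75, 3.11 to 7.38 on the later duct arrays, and 25.3 and 21.4 in Wt1-GFP cells. The members themselves summed to 157 at E8.75, 12.4 to 25.2 on the later duct arrays, and 12.9 and 12.0 in Wt1-GFP cells.

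**Figure D4:**
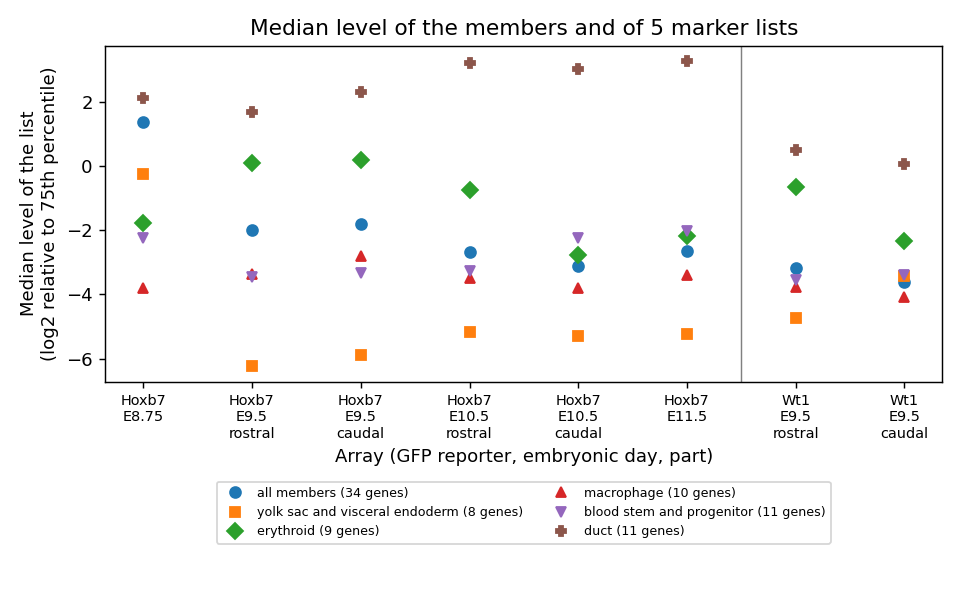
Median level over the 34 genes and over 5 marker lists on each of the 8 arrays, on the log2 scale relative to each array's 75th percentile; each point is 1 array, with no error. The endothelial genes and the yolk sac and visceral endoderm genes are highest at E8.75, the erythroid genes are highest at E9.5, and the duct genes are higher on every Hoxb7-GFP array than on the Wt1-GFP arrays.

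The members varied together mainly through the E8.75 array. The correlation of a member with the mean of the other 33 over the 8 arrays had a median of 0.888, with 14 members above 0.9 and Vwf lowest at 0.085. Over the 7 arrays without E8.75 the median was 0.593. Aplnr (0.987), Esam (0.915) and Flt4 (0.905) were closest to the others there, and Etv2 (-0.631) and Mrc1 (-0.624) ran against them. The Mrc1 values on those 7 arrays were not well above background. These correlations describe 8 arrays that differ in stage, reporter and part, and they carry no test.

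Outside the set, the 10 names whose levels over the 8 arrays were most like the mean of the 34 genes were Grap (r = 0.994), Plxnd1 (0.990), Pparg (0.987), Vsig2 (0.984), Msx1 (0.977), Pam (0.975), Hvcn1 (0.975), Sox17 (0.974), 1 probe without a gene name (0.971) and S1pr1 (0.959). Plxnd1, a semaphorin receptor of endothelium, was at 1.52 at E8.75, -0.75 and -0.48 at E9.5, and -1.09 and -1.39 in Wt1-GFP cells. Sox17 and S1pr1, a sphingosine phosphate receptor, are also on the list of other endothelial genes.

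Promoters are shown because the members that were lower together at E9.5 include ETS factors, whose core binding letters can be looked up. RefSeq promoters on GRCm38.p6, from 250 bases before to 50 after the start of the gene, matched 21 of the 34 members. AGGAAG, on either strand, was in 14 of these 21 promoters (66.7%) and in 38.4% of 27025 gene promoters. The GATA motif AGATAA, also on either strand, was in 3 of 21 (14.3%) and in 12.7% of all. A match is a description of letters and not a bound site, and the Kdr window held neither motif. The 250 bases before the start are printed for Flt1 (chr5:147726012-147726261, minus strand), Emcn (chr3:137340828-137341077, plus strand) and Mrc1 (chr2:14229164-14229413, plus strand), which hold 2, 2 and 3 matches, with AGGAAG or its reverse complement in capitals.
Flt1 promoter: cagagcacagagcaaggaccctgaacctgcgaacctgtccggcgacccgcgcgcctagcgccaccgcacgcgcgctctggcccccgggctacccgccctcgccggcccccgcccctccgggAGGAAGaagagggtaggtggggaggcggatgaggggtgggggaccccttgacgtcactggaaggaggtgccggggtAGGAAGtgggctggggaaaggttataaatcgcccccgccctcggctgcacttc
Emcn promoter: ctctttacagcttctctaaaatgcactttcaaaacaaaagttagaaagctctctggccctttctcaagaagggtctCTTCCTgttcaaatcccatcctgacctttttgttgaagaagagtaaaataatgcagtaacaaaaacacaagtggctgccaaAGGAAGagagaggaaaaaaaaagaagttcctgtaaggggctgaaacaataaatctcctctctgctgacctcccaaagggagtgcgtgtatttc
Mrc1 promoter: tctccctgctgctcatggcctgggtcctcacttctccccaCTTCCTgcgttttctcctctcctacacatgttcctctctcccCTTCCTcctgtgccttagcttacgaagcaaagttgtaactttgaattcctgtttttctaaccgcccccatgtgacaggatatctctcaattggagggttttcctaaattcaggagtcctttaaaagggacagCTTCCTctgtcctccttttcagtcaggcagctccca
These 3 genes were lower at E9.5 than at E8.75 (differences -2.90, -2.26 and, from E9.5 values not well above background, -7.33).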

How the data were processed

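RNA of sorted mouse cells was hybridised to 8 Agilent one-colour arrays, 1 per sample, on 1 slide with 4 arrays in each of 2 rows. Per the labels' protocols, a NuGEN Pico kit amplified the RNA before Cy3 labelling. Per the file headers, each intensity is Agilent Feature Extraction's processed signal (version 10.7.3.1 per the submitters' processing notes), with flags for outliers, saturation and spots well above background; probe positions are on mm9. The deposited matrix holds log2 values, whose scale is not stated: they followed these levels, centred on each probe's median, at r = 1.00, with column medians from -0.07 to 0.08, and served as an alternative. Their direction was taken from this match.

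Outlier spots were left out and repeated spots averaged, which kept 55663 of 55681 probes. Levels are log2 of the processed signal divided by that array's 75th percentile (243 to 317). Probes well above background on at least 1 array were tested, the brightest probe standing for a gene, and all 34 members passed. Names came from RefSeq accessions (26709 probes), symbols (3816) or the probe's own name (25092). limma 3.58.1 in R 4.3.3 fitted 5 groups and a position term (0.5 rostral, -0.5 caudal, 0 undivided), and p-values were adjusted by Benjamini-Hochberg over all genes tested. The number of arrays limits the precision. The fit was tested on simulated data.

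Members, lists, rules and tests were chosen with earlier results of these data known. The genes named are all members, both Kdr probes, up to 4 genes of each other list with the largest difference between E9.5 and E8.75, 5 label genes and the 10 names most like the members. Runx1, Ptprc, Csf1r and Apoa4 were picked out after their values were seen. Alternatives were normexp, quantile normalization, floored values, no filter, an intensity trend, the mean of probes, no position term, the slide row, the deposited matrix and leaving out arrays. Leaving out the E8.75 array, and the trend with arrays left out or with the slide row, were added after seeing the data.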

Additional observations from a re-analysis of the deposited data

Results flagged for a closer look

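For 5 members the rostral minus caudal difference was at least 1 on the log2 scale in one split group and at most -1 in another. The contrast between groups was not tested, and each rests on 4 arrays. Each involves the E10.5 duct, whose rostral array lay in the first row of the slide and its caudal array in the second. Position and slide row cannot be told apart there. Tie1 was higher rostrally by 3.39 at E10.5 in the duct and lower by -2.30 at E9.5, a gap of 5.69. Tek was at 3.60 in Wt1-GFP cells and -1.94 in the E10.5 duct, a gap of 5.54. Lmo2 was at 1.81 in the E10.5 duct and -1.29 in the E9.5 duct, a gap of 3.10, and Stab1 at 1.74 and -1.18 in the same groups, a gap of 2.92. Fli1 was at 1.15 in Wt1-GFP cells and -1.43 in the E10.5 duct, a gap of 2.59. For Tie1 and Lmo2 the dimmer E10.5 array was not well above background, and neither was the dimmer Stab1 array of E10.5 or the dimmer Tek array of the Wt1-GFP cells.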

How the results depend on the processing

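The 33 members that were lower by 2-fold or more at E9.5 than at E8.75 gave 528 values over 16 alternatives, of which 0 turned direction, and the count ran from 30 to 33. Normexp correction called 167 genes between E9.5 and E8.75, 207 between duct and Wt1-GFP cells of E9.5, and 142 between E8.75 and Wt1-GFP cells, and gave median member differences of -2.21, 0.38 and 2.84. Under it 7 members were higher in the E9.5 duct than in Wt1-GFP cells, 5 were lower at E10.5 (median -0.31), 3 were higher and 0 lower at E11.5, and 0 differed each way between rostral and caudal parts. The intensity trend called 368, 621 and 123 genes in those 3 comparisons, and the fit with no position term 16 and 8 in the first 2. For rostral against caudal parts, quantile normalization gave 2 higher, floored values 0 lower, the mean of probes 0 higher and 1 lower, and the slide row 2 higher and 4 lower. The slide row also gave 3 lower members in the E9.5 duct against Wt1-GFP cells, with Tie1 at -0.95 there and at 0.39 at E10.5 against E9.5. The causes were not tested.

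With single arrays left out, members higher in the E9.5 duct than in Wt1-GFP cells ran from 12 (without the caudal E9.5 array) to 21, and lower from 1 to 2. Members higher at E10.5 ran from 0 to 3, and rostral against caudal members from 1 to 5 higher and 2 to 4 lower. Gja4 was at -0.19 in the duct against Wt1-GFP cells without the rostral E9.5 array and at 2.33 without the caudal one, Tie1 at 0.61 and 0.39 at E10.5 without the caudal E9.5 or E10.5 array and at -3.88 without the rostral E9.5 array, and Tek at 0.86 at E11.5 without the caudal E10.5 array and at -3.51 without the rostral one. No paired analysis was possible because the labels give no replicate numbers; rostral and caudal parts enter through the position term.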
